A study of Anethum foeniculum with 6 samples.

Results

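The transcripts described here are the leaf transcripts of fennel whose level differed most between replicate libraries from plants kept in plain sunlight. Fennel is an aromatic herb of the carrot family, and the plants were hydroponic. The red group (3 libraries) had ambient sunlight with added narrow-wavelength light from red LEDs, and the control group (3 libraries) had ambient sunlight alone. All libraries came from leaf. The labels name them biological replicates and do not say how many plants went into each, so the spread between libraries may include technical spread. The sources used here give no plant age, cultivar or time of harvest.

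Members were chosen on the control values themselves. A row of the count table qualified when it had at least 10 counts in every library and a mean of at least 20 CPM (counts scaled to the library total) in the control libraries, and when it was not among the 100 rows with the highest control mean. This left 6296 eligible rows of 127290. They were ranked by control spread, which is the highest divided by the lowest CPM of the 3 control libraries, and the first 150 were taken. Of these, 16 were dropped because all their red values lay above, or all lay below, all their control values, which left 134 members. The share of rows dropped in this way was 10.7% of the 150, and 30.2% of all eligible rows were separated. The order of red against control values is therefore part of the rule too.

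In a de novo assembly, transcripts are built from the reads without a genome. A Trinity identifier gives a cluster (DN number), a subcluster (c number) and a gene within it (g number). Genes of the same subcluster come from overlapping sequence graphs and can be alleles, paralogs or pieces of the same gene, so reads may be divided between them. As background on leaf biology, transcripts that respond to light, water, nutrients, wounding or pathogens are known to differ more between plants grown side by side than those of core cell functions. Rows carry assembly identifiers without gene names, and no function is given for any member. Leaf marker genes were not checked for the same reason.

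Total counts were 18839959 to 22673552 in red libraries and 18040162 to 22992137 in control libraries. The lowest red count of a member had a median of 273.5 (11 to 8363), and the lowest control count a median of 204.5 (18 to 5183). In bulk leaf, fewer cells of a type and less RNA per cell cannot be told apart.

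The control libraries differed by 3.64-fold to 214-fold in the members, with a median of 5.09-fold. The median control spread of the 4395 eligible rows that were not separated was 1.38-fold. Of the 134 members, 25 had a control spread of at least 10-fold, 12 of at least 20-fold and 3 of at least 100-fold. These values chose the members and are given as a description, with no test. The members were moderately expressed, with a median control mean of 32.2 CPM (up to 697 CPM), against 42.2 CPM over the non-separated eligible rows.

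The 3 widest control spreads came from transcripts that were abundant in 2 control libraries and scarce in the other. TRINITY_DN13907_c5_g1 had 26.8, 224 and 185 CPM in red replicates 1 to 3, against 531, 596 and 2.78 CPM in control replicates 1 to 3. Its 3 red values lay inside the control range. The 214-fold control spread has a 95% interval of 167 to 278 from counting error alone (Clopper-Pearson). That interval takes no account of the choice of this row as the widest, or of differences between plants. TRINITY_DN20017_c3_g1 had 192, 0.711 and 134 CPM in red leaves, against 888, 336 and 4.18 CPM in control leaves. Here red replicate 2 lay below all controls, with 14 counts, and the red spread of 270-fold exceeded the control spread of 213-fold. TRINITY_DN13122_c0_g1 had 540, 244 and 158 CPM in red leaves, against 540, 149.3 and 4.44 CPM in control leaves. Control replicate 3 was the low library in all 3 of these transcripts.

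Other members had a single high control. TRINITY_DN23075_c1_g3 had 6.00, 1.42 and 6.90 CPM in red leaves, against 2.05, 0.9498 and 62.5 CPM in control leaves, so control replicate 3 stood apart from the other 5 libraries. TRINITY_DN9666_c0_g1 had 1.32, 22.1 and 2.02 CPM in red leaves, against 1.497, 64.6 and 1.22 CPM in control leaves. It was high in replicate 2 of both groups. A member with graded controls was TRINITY_DN6114_c0_g1, which had 10.7, 19.8 and 21.8 CPM in red leaves, against 65.7, 3.11 and 13.3 CPM in control leaves.

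In the remaining members with the widest control spreads or the widest within an order of the controls, the libraries at the low end differed. TRINITY_DN6820_c0_g1 had 104, 115 and 3.98 CPM in red leaves, against 57.3, 4.38 and 260 CPM in control leaves, so 1 red library was as scarce as the lowest control. TRINITY_DN51355_c0_g1 had 13.6, 27.5 and 56.4 CPM in red leaves, against 53.2, 17.7 and 1.30 CPM in control leaves. Control replicate 3 was low there without a low red library. TRINITY_DN128989_c0_g1 had 132, 238 and 122.6 CPM in red leaves, against 142, 11.5 and 11.7 CPM in control leaves, so control replicate 1 lay with the red libraries. TRINITY_DN14400_c0_g2 had 48.4, 7.21 and 3.93 CPM in red leaves, against 1.11, 21.1 and 42.8 CPM in control leaves. TRINITY_DN109992_c0_g1 had 117, 19.2 and 12.8 CPM in red leaves, against 4.77, 43.3 and 49.6 CPM in control leaves. In both of these, control replicate 1 was the lowest of all 6 libraries and red replicate 1 the highest.

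**Figure D1:**
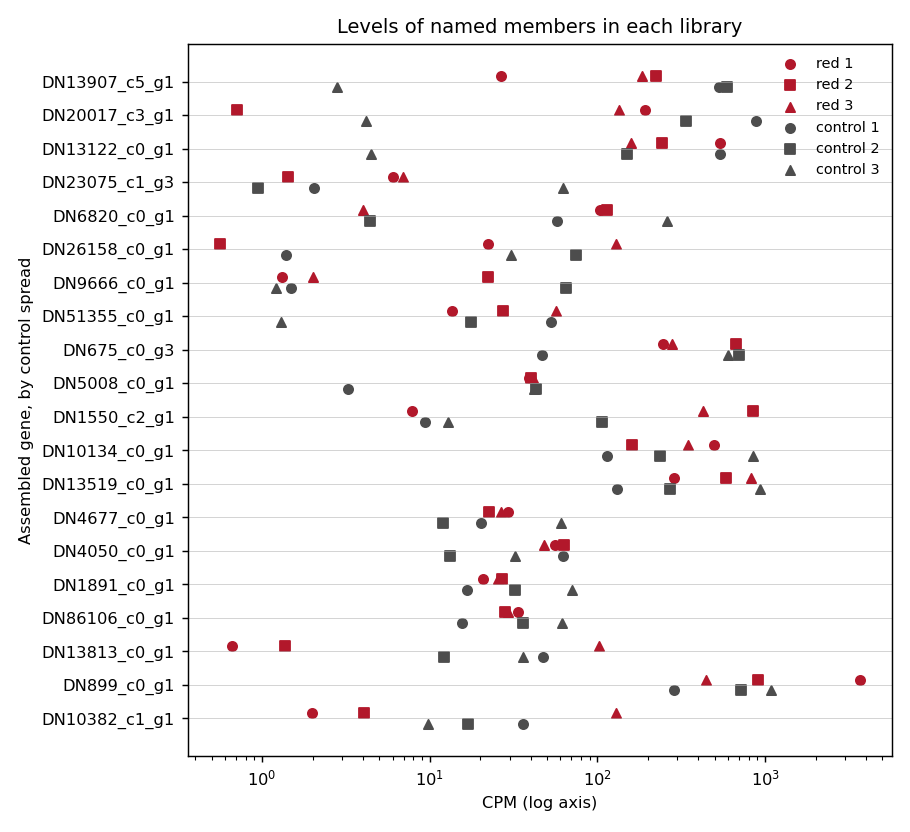
Levels of named members in each library, in CPM on a log axis; rows are assembled genes ordered by control spread, red libraries are red symbols drawn above the grey control symbols, and each point is 1 library. DN13907_c5_g1 at the top spans 2.78 to 596 CPM in control leaves, and DN5008_c0_g1 has all 3 red values within 39.3 to 41.5 CPM.

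TRINITY_DN13907_c5_g1 and TRINITY_DN20017_c3_g1 were also among the 6 members with the highest control mean, and the other 4 had smaller control spreads (3.76-fold to 14.9-fold). TRINITY_DN899_c0_g1, the member with the highest control mean, had 3698, 905 and 444 CPM in red leaves, against 287, 721 and 1082 CPM in control leaves. Red replicate 1 lay above every other library. TRINITY_DN13519_c0_g1 had 284, 582 and 824 CPM in red leaves, against 131, 271 and 937 CPM in control leaves, and its red values lay inside the control range. TRINITY_DN10134_c0_g1 had 497, 160 and 345 CPM in red leaves, against 115, 235 and 843 CPM in control leaves. TRINITY_DN675_c0_g3 had 247, 670 and 277 CPM in red leaves, against 46.7, 697 and 600 CPM in control leaves, with control replicate 1 as the low library.

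The control libraries were unevenly spaced in the members about as often as in other rows, but the odd library was more often the low one. The control values that chose the members also set these shares, which are given as a description, with no test. A library was called lone when, on the log2 scale, its gap to the middle control was more than 2 times the gap between the other two. A lone low control was found in 63 members (47.0%), a lone high control in 21 (15.7%) and neither in 50 (37.3%). Among all non-separated eligible rows these shares were 35.8%, 27.6% and 36.7%. The lone low library was control replicate 1 in 30 members, control replicate 3 in 22 and control replicate 2 in 11, and among the 1573 non-separated eligible rows with a lone low control it was these libraries in 507, 654 and 412. The lone high library was control replicate 3 in 10, control replicate 1 in 7 and control replicate 2 in 4, and among the 1211 such eligible rows in 372, 316 and 523.

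All 6 orders of the control libraries occurred. The most frequent had control replicate 3 highest and control replicate 1 lowest (35 members, 26.1%, against 13.8% of the non-separated eligible rows), and the other orders held 14 to 23 members each. Control replicate 3 was the highest control in 57 members, control replicate 2 in 42 and control replicate 1 in 35. The highest control was thus not the same library in all members. All 6 orders also occurred among the non-separated eligible rows. These orders come from the values that chose the members and do not measure how much of the spread each library contributed.

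**Figure D2:**
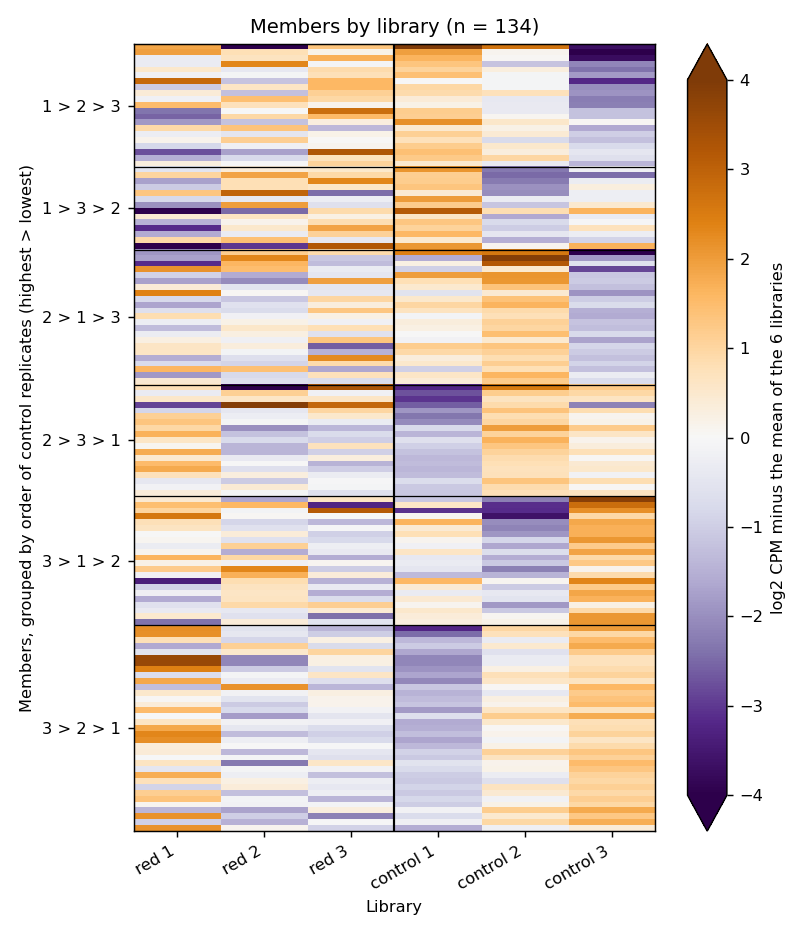
Log2 CPM of the 134 members minus each member's mean over the 6 libraries, with red libraries on the left and control libraries on the right; rows are grouped by the order of the control replicates. Each of the 6 control orders is filled, and the bottom group of 35 members, with control replicate 3 highest and control replicate 1 lowest, is mostly highest in red replicate 1 among the red libraries.

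The red libraries were not used to rank the members, and they were far apart in the members as well. The red spread, the highest divided by the lowest CPM of the 3 red libraries, had a median of 4.32-fold (1.05 to 270), against 1.73-fold over the non-separated eligible rows. It was at least 4-fold in 72 of the 134 members (53.7%), where 10.8% of the non-separated eligible rows reached 4-fold. It was at least 10-fold in 27 members (20.1% against 2.57%) and below 1.5-fold in 9 (6.72% against 35.7%). The removal of separated rows and the minimum of 10 counts in every library act on red values, so these shares are given as a description, with no test.

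The red spread grew with the control spread across the rows below the members' limit and showed no steady trend among the members. Rows with a control spread of 1 to 1.2-fold had a median red spread of 1.47-fold, and those of 2 to 3-fold one of 2.55-fold. In the 73 rows between 3-fold and the limit it was 3.77-fold, and 46.6% of them reached 4-fold. Among the members, it was 5.08-fold for the 45 with the widest control spread, 3.98-fold for the next 45 and 4.57-fold for the last 44. Scarce and abundant members were alike in standing above the other rows of their level. For a control mean of 20 to 30 CPM the red spread reached 4-fold in 31 of 58 members, and for 100 CPM or more in 8 of 17, against 11.4% and 9.85% of the non-separated eligible rows of those levels.

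The members' red spread was lowest with red replicate 1 left out, and that of the non-separated eligible rows with red replicate 3 left out. With the members kept as they were, the median red spread over red replicates 2 and 3 was 2.02-fold, and 32 members reached 4-fold. Without red replicate 2 the values were 2.93-fold and 52 members, and without red replicate 3 they were 2.35-fold and 39 members. A spread over 2 libraries cannot exceed that over all 3. The same ratios over the non-separated eligible rows were 1.38-fold, 1.52-fold and 1.31-fold, with 4.05%, 8.78% and 3.34% at 4-fold or more.

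**Figure D3:**
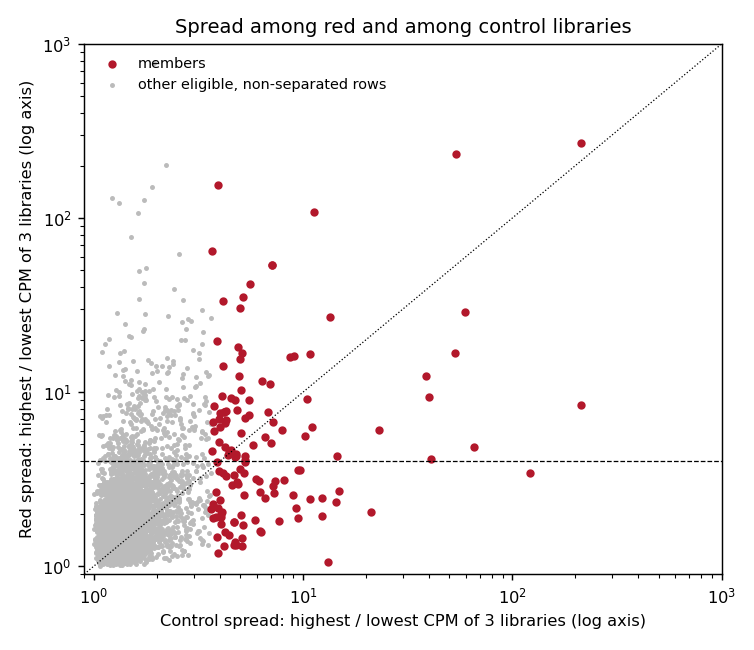
Red spread (vertical, highest / lowest CPM of the 3 red libraries) against control spread (horizontal, the same over the 3 control libraries), both on log axes, for the 134 members (red points) and the other eligible, non-separated rows (grey points); the dashed line marks 4-fold and the dotted line equal spreads. Above the dashed line lie 72 members, and 50 members lie above the dotted line.

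Some members were at least as uneven in red leaves as in control leaves. In 50 members (37.3%) the red spread exceeded the control spread, which held for 73.9% of the non-separated eligible rows; the members were chosen for a wide control spread. TRINITY_DN26158_c0_g1 had 22.2, 0.559 and 130 CPM in red leaves, against 1.39, 74.8 and 30.6 CPM in control leaves, with a red spread of 232-fold over 11 counts in its lowest red library. TRINITY_DN13813_c0_g1 had 0.662, 1.37 and 102 CPM in red leaves, against 47.4, 12.1 and 35.8 CPM in control leaves. TRINITY_DN10382_c1_g1 had 1.98, 4.06 and 129 CPM in red leaves, against 36.0, 16.9 and 9.83 CPM in control leaves. In both of these, red replicate 3 lay above all controls while red replicates 1 and 2 lay below them. TRINITY_DN1550_c2_g1 had 7.85, 849 and 429 CPM in red leaves, against 9.42, 107 and 12.9 CPM in control leaves. Its red replicates 2 and 3 were above all controls and red replicate 1 below them.

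A few members were even across red leaves although control leaves differed. TRINITY_DN5008_c0_g1 had 39.3, 40.3 and 41.5 CPM in red leaves, against 3.27, 42.8 and 41.9 CPM in control leaves. TRINITY_DN86106_c0_g1 had 33.4, 28.2 and 29.3 CPM in red leaves, against 15.6, 36.0 and 61.1 CPM in control leaves. TRINITY_DN4677_c0_g1 had 29.2, 22.5 and 26.8 CPM in red leaves, against 20.2, 11.98 and 61.0 CPM in control leaves. In these 3 the control libraries were 13.1-fold, 3.92-fold and 5.09-fold apart, and the red libraries 1.05-fold, 1.18-fold and 1.30-fold. TRINITY_DN1891_c0_g1 and TRINITY_DN4050_c0_g1 completed the 5 smallest red spreads, at 1.30-fold and 1.32-fold.

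Red values of the members mostly fell inside the control range, which is wide by choice. Red replicate 3 lay inside it in 96 members (71.6%, against 58.9% of the non-separated eligible rows), red replicate 2 in 87 (64.9% against 33.8%) and red replicate 1 in 71 (53.0% against 29.6%). All 3 red libraries were inside it in 38 members (28.4% against 8.42%) and none in 7 (5.22% against 17.0%). Red replicate 1 lay above all controls in 35 members (26.1% against 24.7%) and below all in 28 (20.9% against 45.6%). Red replicate 2 lay above in 18 (13.4% against 22.5%) and below in 29 (21.6% against 43.7%). Red replicate 3 lay above in 19 (14.2% against 14.4%) and below in 19 (14.2% against 26.8%). Red replicates 1 and 2 were both above all controls in 8 members (5.97% against 11.7%), among them TRINITY_DN132_c0_g1 with 171, 108 and 30.7 CPM in red leaves, against 20.1, 53.8 and 5.26 CPM in control leaves. They were both below all controls in 10 (7.46% against 28.9%). TRINITY_DN132_c0_g1 was picked out after its values were seen.

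The red library that was highest differed with the control library that was highest, by count. Over all 134 members, red replicate 1 was the highest red library in 57 (42.5%), red replicate 3 in 45 (33.6%) and red replicate 2 in 32 (23.9%). Over the non-separated eligible rows these shares were 31.3%, 43.4% and 25.3%. Of the 57 members highest in control replicate 3, red replicate 1 was the highest red library in 34 (59.6%), while among the non-separated eligible rows highest in control replicate 3 this share was 44.96%. Of the 35 members highest in control replicate 1, red replicate 3 was the highest red library in 21 (60.0%) and red replicate 1 in 4 (11.4%). The shares among the non-separated eligible rows highest in control replicate 1 were 42.6% and 22.4%. The 42 members highest in control replicate 2 showed no red library above 50%: red replicate 1 was highest in 19 (45.2%), red replicate 3 in 15 (35.7%) and red replicate 2 in 8 (19.0%). The shares among the non-separated eligible rows highest in control replicate 2 were 27.9%, 54.1% and 18.0%. Of the 35 members with the order control replicate 3, then 2, then 1, red replicate 1 was highest in 26 (74.3%), against 49.5% of the non-separated eligible rows of that order. The labels do not pair red and control libraries by replicate number, members may share reads, and no test was made of these counts.

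**Figure D4:**
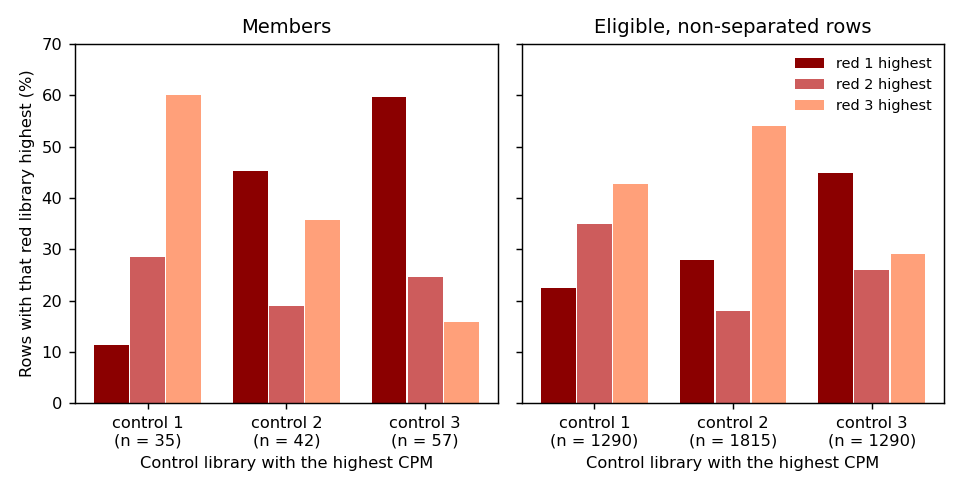
Share of rows (%) in which each red library had the highest red CPM, grouped by the control library with the highest control CPM, for the members (left) and for all eligible, non-separated rows (right); bars start at 0. Among members highest in control replicate 3, red replicate 1 leads with 59.6%, and among members highest in control replicate 1, red replicate 3 leads with 60.0%.

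Compared pair by pair, the members put the libraries of both groups far apart. The median difference of a member between 2 red libraries was 2.35-fold for red replicates 1 and 2, 2.93-fold for 1 and 3, and 2.02-fold for 2 and 3. Between 2 control libraries, where the members were chosen, it was 2.90-fold, 3.93-fold and 2.97-fold for replicates 1 and 2, 1 and 3, and 2 and 3. Red and control libraries differed by 1.92-fold (red replicate 3 and control replicate 1) to 3.26-fold (red replicate 1 and control replicate 1). Over the non-separated eligible rows, the same medians were 1.31-fold to 1.52-fold within red and 1.21-fold to 1.24-fold within control.

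With the groups exchanged, the same rule gave 133 rows with a red spread of 13.1-fold to 774-fold. The lower end lay above the 3.64-fold at which the control list ended. The 2 lists shared 19 rows, which is 14.2% of the 134 members and 14.3% of the 133 rows. Of the 134 members, 99 were eligible under the exchanged rule, so only these could be shared. Rows eligible under both forms of the rule numbered 5293.

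Together the members took 1.42%, 0.997% and 0.917% of all counts in red replicates 1 to 3, against 0.804%, 0.909% and 1.01% in control replicates 1 to 3. The groups overlapped, with means of 1.11% ± 0.272 in red leaves and 0.907% ± 0.102 in control leaves (SD, n = 3 each). Red replicate 1 was the high library. There, TRINITY_DN899_c0_g1 alone stood at 3698 CPM, and the 5 most abundant members took 0.606% of counts. The remaining members took 0.817%, 0.634% and 0.671% in red leaves, against 0.549%, 0.643% and 0.609% in control leaves.

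Between the light treatments, 0 of the 134 members passed edgeR's quasi-likelihood test at an adjusted p under 0.05, where 0% of all 36013 genes tested passed. All 134 had passed the filter on low counts. At an unadjusted p under 0.05 there were 2 members, against a background of 8.81% of the genes tested. DESeq2 called 0 members, with 4.54% of all genes called. It gave no adjusted p for TRINITY_DN23075_c1_g3, TRINITY_DN9666_c0_g1, TRINITY_DN128989_c0_g1 and TRINITY_DN10382_c1_g1, which therefore could not be called. Because the rule dropped rows whose groups did not overlap, nothing is read from these counts. Log2 fold changes of red over control ranged from -2.61 to 3.48, with a median of 0.08 over the members and 0.00 over all genes tested. Their standard errors, worked back from the fold change and the test statistic, had a median of 0.80, against 0.28 over the non-separated eligible rows. The members were chosen for a wide control spread, which enters these errors. Mean CPM was higher in red than in control leaves in 65 of the 134 members (48.5%), against 34.1% of the non-separated eligible rows.

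The 2 members at an unadjusted p under 0.05 had lower means in red leaves, and in both the red and control values overlapped. TRINITY_DN8383_c0_g1 had 8.78, 5.64 and 12.2 CPM in red leaves, against 66.1, 72.4 and 7.79 CPM in control leaves (log2 fold change -2.30 ± 0.79, standard error; adjusted p = 0.44 by edgeR). TRINITY_DN9474_c2_g1 had 6.79, 4.77 and 12.7 CPM in red leaves, against 11.6, 25.8 and 44.6 CPM in control leaves (log2 fold change -1.62 ± 0.58, standard error; adjusted p = 0.47 by edgeR).

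For part of the members, the control spread shrank when the rows of their subcluster were added up. Of the 134 members, 54 (40.3%) had another row with counts in the same subcluster, and in 36 (26.9%) these other rows had a control mean of at least 10 CPM in sum. In these 36 members the median control spread was 5.60-fold for the row and 2.32-fold for the subcluster sum. The sum was under 2-fold in 14 and under 1.5-fold in 9, and it stayed at or above 3.64-fold in 10. These 10 include TRINITY_DN6025_c0_g1, TRINITY_DN6025_c0_g2 and TRINITY_DN17963_c0_g1, whose only other row has the same counts. For them the sum has the row's spread by construction. A subcluster holding several members was counted once for each. A sum over rows tends to vary less than a single row, and among the 902 non-separated eligible rows with such neighbours the medians were 1.41-fold and 1.31-fold. In 6 of the 36 members (16.7%) the other rows were lowest where the member was highest and highest where it was lowest, which held for 10.8% of those 902 rows. The 6 include both rows of subcluster DN5008_c0, each being the only other row of its partner. In 15 of the 36 members (41.7%) the other rows were instead highest in the same control library as the member. This held for 406 of those 902 rows, and it holds by construction for the members with identical rows. No test was made of these counts.

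The smallest control spread of a sum among these 36 was that of subcluster DN5008_c0, in which both rows were members. TRINITY_DN5008_c0_g2 had 6.84, 8.94 and 9.87 CPM in red leaves, against 47.6, 9.34 and 10.1 CPM in control leaves. TRINITY_DN5008_c0_g1 was low in control replicate 1, where TRINITY_DN5008_c0_g2 was high. Their sum was 46.2, 49.2 and 51.3 CPM in red leaves, against 50.8, 52.1 and 52.0 CPM in control leaves. The sum's control spread was 1.03-fold, while those of the single rows were 13.1-fold and 5.09-fold. Control replicate 1 differed from the other controls in how counts were divided between the rows.

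Other members also had far smaller spreads in sum. TRINITY_DN752_c2_g2 had a control spread of 5.93-fold, and its subcluster summed to 72.9, 69.3 and 69.4 CPM in red leaves, against 94.0, 94.7 and 112 CPM in control leaves. TRINITY_DN3047_c0_g1 had 10.5, 8.38 and 133 CPM in red leaves, against 60.8, 145 and 16.8 CPM in control leaves. The other row of its subcluster, TRINITY_DN3047_c0_g2, had 76.8, 66.4 and 23.0 CPM in red leaves, against 94.2, 70.4 and 174 CPM in control leaves. The sum had a control spread of 1.39-fold, against 8.66-fold for the member. In TRINITY_DN29704_c0_g2 the control spread was 7.17-fold for the row and 1.15-fold for the sum. For TRINITY_DN675_c0_g3 the row and sum had 14.9-fold and 1.496-fold, and for TRINITY_DN14400_c0_g2 they had 38.6-fold and 2.20-fold. These rows made up 28.0% and 12.2% of their sums in control leaves.

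In the subcluster DN150_c0 the 2 rows with at least 5 CPM in a library were high together. TRINITY_DN150_c0_g1 had 26.2, 16.6 and 14.3 CPM in red leaves, against 26.8, 13.7 and 105 CPM in control leaves. Its neighbour TRINITY_DN150_c0_g2 had 9.26, 8.84 and 4.46 CPM in red leaves, against 12.9, 4.22 and 34.6 CPM in control leaves. Control replicate 3 was the high library for both, and the sum of all 3 rows kept a control spread of 6.45-fold. The members described for their subcluster were picked out after their values were seen.

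**Figure D5:**
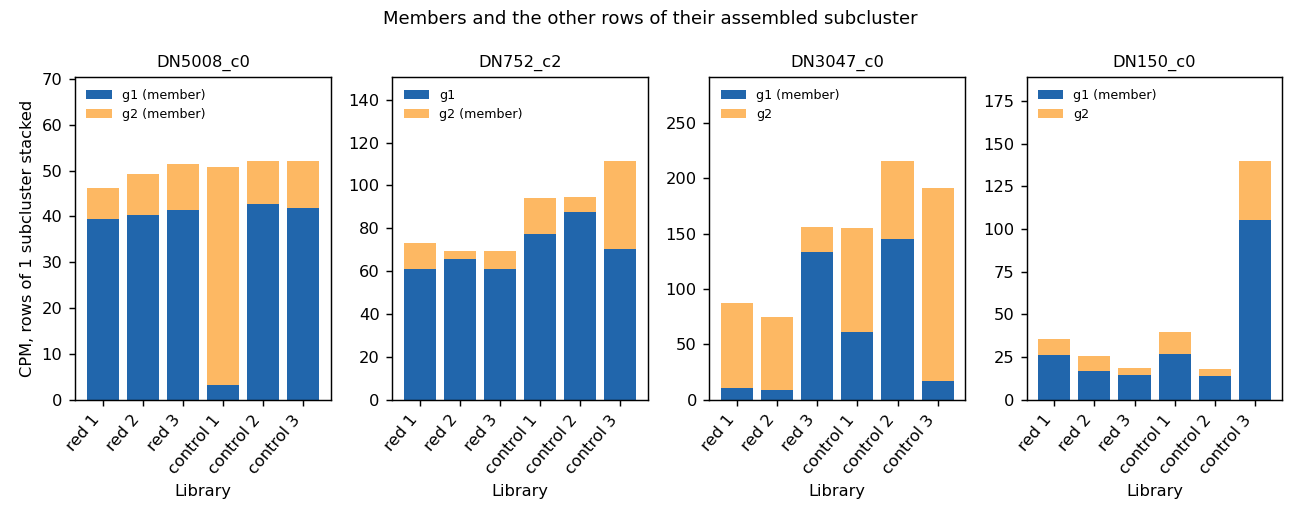
CPM of the rows of 4 assembled subclusters (rows with at least 5 CPM in a library), stacked in each library, with red libraries left of control libraries; bars start at 0. In DN5008_c0 the stacks have nearly the same height in control leaves (50.8 to 52.1 CPM) while the blue share changes, whereas in DN150_c0 both drawn rows are high in control replicate 3.

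The 134 members lay in 129 assembled clusters, 5 of which held 2 members each. TRINITY_DN6025_c0_g1 and TRINITY_DN6025_c0_g2 had the same count in every library (451, 8.43 and 43.2 CPM in red leaves, against 8.48, 28.9 and 60.0 CPM in control leaves) and cannot be told apart in this table. The 2 members of DN1920 ran alike. TRINITY_DN1920_c0_g3 had 1.06, 19.2 and 3.82 CPM in red leaves, against 32.1, 11.3 and 55.1 CPM in control leaves. TRINITY_DN1920_c1_g2 had 3.00, 20.2 and 11.0 CPM in red leaves, against 19.2, 17.9 and 66.4 CPM in control leaves. Both were highest in control replicate 3 and lowest in red replicate 1. In DN2484, TRINITY_DN2484_c0_g2 had 9.22, 32.7 and 39.2 CPM in red leaves, against 26.6, 44.1 and 9.35 CPM in control leaves.

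The limit of the list fell between rows with nearly equal control spread. TRINITY_DN2484_c0_g1 had 43.9, 72.9 and 202 CPM in red leaves, against 298, 247 and 81.5 CPM in control leaves, a control spread of 3.66-fold. TRINITY_DN17963_c0_g1, the last row taken, had 133, 104 and 222 CPM in red leaves, against 151, 84.3 and 41.6 CPM in control leaves, a control spread of 3.64-fold. The first row left out, TRINITY_DN17963_c0_g2, had the same counts in every library and was placed after it by its identifier. The next, TRINITY_DN1490_c0_g1, had 142, 21.6 and 27.0 CPM in red leaves, against 47.6, 173 and 166 CPM in control leaves, a control spread of 3.63-fold.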

How the data were processed

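Total RNA from about 50 mg of leaf was DNase-treated and sequenced in pairs of 150 bp on a NovaSeq, per the labels' protocols. The authors deposited 1 table of raw counts per assembled gene for 6 libraries. Its identifiers follow Trinity's naming. The assembler's version, the aligner, the counter and any filter are left unstated by the sources used here. Columns were matched to samples by library name.

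CPM was computed from column totals. Red and control libraries were compared with edgeR's quasi-likelihood test (edgeR 4.0.16, R 4.3.3) after filterByExpr and TMM scaling, with the treatment as the only term and Benjamini-Hochberg adjustment over all 36013 genes. DESeq2 1.42.0, limma-voom (limma 3.58.1), other scalings and filters, a replicate block, removal of each library and other forms of the selection rule were alternatives. The scripts were tested on simulated data. The members, lists and tests were chosen with earlier results of these data known. Named were members with the widest control spread (8 of all, 2 per control order), the highest control mean (6), the 5 largest and 5 smallest red spreads, the 2 rows on each side of the limit, and members sharing a cluster (up to 4); others were picked after their values were seen. Functions, sequences and positions were not analysed here.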

Additional observations from a re-analysis of the deposited data

How the results depend on the processing

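The number of members passing a test between red and control leaves was 0 in each of the 13 alternatives, though DESeq2 gave some members no adjusted p. Over all genes the edgeR count of 0 became 254 without a filter on low counts, and DESeq2 called 1636. With 1 library left out it ranged from 0 to 43, the latter without red replicate 3. No pairing of the libraries by replicate number was seen in deviations from the group means, which cannot show how the plants were arranged. Same-numbered red and control libraries correlated at -0.06, -0.02 and -0.05, and differently numbered ones at 3.9e-05 to 0.049. The replicate block also called 0 genes and 0 members. The members' median red spread of 4.32-fold ranged from 2.099 (without red replicate 1) to 4.41 with 1 library left out and the rule applied anew, that of the eligible rows from 1.37 to 1.76, and the number of members at 4-fold or more from 34 (without red replicate 1; 40 without red replicate 3) to 71. Leaving out a red library takes the spread over fewer libraries. Leaving out a control replaced members: 59, 79 and 63 of the 134 were still chosen without control replicates 1, 2 and 3. TMM scaling, other minimums, the coefficient of variation, keeping abundant or separated rows and sums per cluster gave medians of 4.17 to 4.43. Sums per subcluster (3.97) and counting identical rows once (4.32) were added after seeing the data. Under a control mean of 10 or 50 CPM, 60 and 45 of the 134 members were chosen.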

Other observations

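A member can lie beside rows in which red and control values did not overlap. TRINITY_DN2239_c0_g3 had 3.79, 19.2 and 133 CPM in red leaves, against 43.6, 15.0 and 8.44 CPM in control leaves, and the groups overlapped. Its neighbour in the same subcluster, TRINITY_DN2239_c0_g4, had 53.0, 55.0 and 33.4 CPM in red leaves, against 3.22, 1.53 and 2.17 CPM in control leaves, with all red values above all control values. Red replicate 3 was the highest red library for the member and the lowest for this neighbour. Another row, TRINITY_DN2239_c0_g1, had 21.5, 39.5 and 22.9 CPM in red leaves, against 2.99, 14.6 and 11.5 CPM in control leaves, also without overlap. In the remaining row, TRINITY_DN2239_c0_g2, the groups overlapped. The sum of the subcluster, member included, was 78.3, 119 and 198 CPM in red leaves, against 54.4, 31.9 and 22.3 CPM in control leaves. The rows may share reads and were picked out after their values were seen. No test was made of the contrast between them.

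Beside the members of DN1920, TRINITY_DN1920_c0_g1 had 0.750, 0.203 and 2.02 CPM in red leaves, against 0.443, 0.211 and 37.7 CPM in control leaves. It was no member because it did not reach the minimum level.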
